A study of Mus musculus with 5 samples.

Results

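The enteric neuron genes examined here are 31 named genes, taken from a list of members and read in whole mouse colon. Of these, 15 were listed as pan-neuronal genes, though some, such as Phox2a and Hand2, are factors of autonomic or enteric neurons. The other 16 were transmitter and subtype genes, most of which mark the messengers a neuron releases. They were 31 of the genes measured on an array whose comparison held 32917 features, 17942 of them with a gene symbol. Each gene was read from its brightest probe, and 30 of the 31 members passed the filter on dim probes. Calb1, which encodes a calcium-binding protein, was not well above background on any of the 5 arrays and was not tested.

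Neurons of the gut wall sit in ganglia between and beneath the muscle layers and run motility, secretion and blood flow largely on their own. Excitatory motor neurons release acetylcholine and tachykinins, inhibitory motor neurons release nitric oxide and vasoactive intestinal peptide, and other classes carry further peptides. Sympathetic and sensory axons also enter the colon from outside, but their cell bodies lie elsewhere, so neuronal messenger RNA in the wall comes largely from the resident neurons. Whole colon does not show how much of a member's RNA comes from cells other than neurons. In it neurons are a minority beside epithelium and muscle, and fewer neurons and less RNA per neuron cannot be told apart.

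The arrays compared colon of C57BL/B6 mice 3 hr after NT-3N, which activates the IL-11 receptor, was injected into a vein with colon of C57BL/B6 mice labelled Control, which the study describes as untreated. There were 3 NT-3N arrays and 2 Control arrays, each with the RNA of 1 mouse. The injected mice were 8 weeks old. No vehicle injection is named for the Control mice, so the injection and the agonist cannot be told apart. IL-11 signals through gp130, the receptor chain that it shares with IL-6 and related cytokines, and from there to the transcription factor STAT3.

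Signal is given throughout as quantile-normalized log2 signal, and a change as the log2 fold change of NT-3N over Control with its limma standard error. Values are listed in the order Control 1, Control 2, then NT-3N 1, 2 and 3. Between 70.6% and 73.0% of the probes of an array were well above background, no spot was saturated, and all 5 arrays shared 1 slide and 1 scan. With 10 ways to divide 5 arrays into 2 and 3, the smallest two-sided p that an exact permutation test can give for 1 gene is 0.1.

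No member passed an adjusted p of 0.05 in either direction in limma, where 0.125% of all features were called higher and 0.0182% lower. At an unadjusted p under 0.05, 1 member was higher, Phox2a, against 4.95% of all features, and 0 were lower, against 4.67%. The adjusted p of the members in limma ran from 0.50 to 0.97. The size of the change was under 0.5 on the log2 scale in 25 of the 30 tested members, and the 95% confidence interval spanned 0 in 29. These intervals were wide, with a median half-width of 0.63 log2, so changes of moderate size could not be seen with 5 arrays.

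The sign of the changes was less even than their size. The log2 fold change was negative in 26 of 30 members, and it was negative in 53.6% of all features. Its median was -0.14 over the 15 pan-neuronal members and -0.26 over the 15 tested transmitter members, beside -0.019 over all features. The groups did not overlap in 0 members with NT-3N higher, against 13.5% of all features, and in 3 members with NT-3N lower, against 14.8%. Those 3 were Elavl4, Hand2 and Slc18a3, and 3 of 30 is below the share over all features.

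This lean was uneven between the arrays. NT-3N 1 held the lowest value of all 5 arrays for 23 of the 30 members, where 25.6% of all features were lowest on it. It lay below both other NT-3N arrays for 24 members, and at least 0.5 log2 below both for 17. The range among the 3 NT-3N arrays exceeded the size of the log2 fold change in 29 members, and the range between the 2 Control arrays exceeded it in 9.

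**Figure D1:**
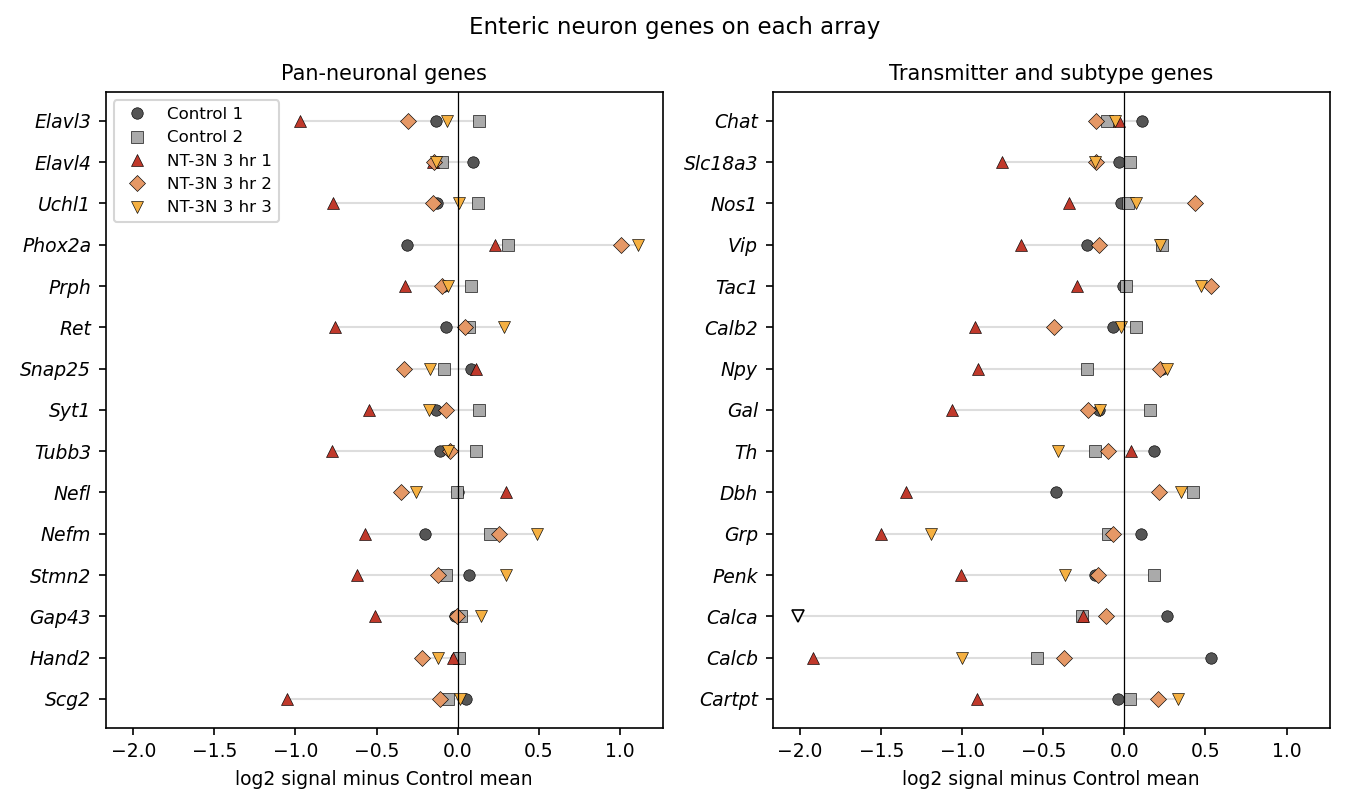
Log2 signal of the 30 tested members on each array, minus the mean of the 2 Control arrays (x axis), with 1 row per gene and 1 symbol per array; an open symbol marks an array on which the probe was not well above background. The triangle of NT-3N 1 is the leftmost symbol in 23 of 30 rows, while NT-3N 2 and 3 lie mostly beside the Control arrays.

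Uchl1 encodes a deubiquitinating enzyme abundant in neurons. Its log2 signal was 12.71 and 12.96 in Control and 12.07, 12.68 and 12.85 in NT-3N. The groups overlapped, with NT-3N 1 well below the other 4 arrays, and the log2 fold change was -0.30 (SE 0.23, adjusted p = 0.71 in limma, 95% interval -0.86 to 0.25). Tubb3, the tubulin of neurons, had the same arrangement, with 9.35 and 9.57 in Control and 8.68, 9.41 and 9.40 in NT-3N.

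Elavl4 and its relative Elavl3 encode RNA-binding proteins of the Hu family, a standard label for enteric neuron cell bodies. The brightest Elavl4 probe read 9.56 and 9.37 in Control and 9.32, 9.32 and 9.33 in NT-3N. All NT-3N arrays lay below both Control arrays by a narrow margin, with a log2 fold change of -0.14 (SE 0.11, adjusted p = 0.71 in limma). A second Elavl4 probe, dimmer but well above background on all arrays, read 5.76 and 6.07 in Control and 4.35, 5.97 and 5.97 in NT-3N, so on that probe NT-3N 1 again stood below the rest. Elavl3 read 7.92 and 8.18, then 7.08, 7.74 and 7.99, with a log2 fold change of -0.45 (SE 0.27, adjusted p = 0.65 in limma) that became -0.19 without NT-3N replicate 1.

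Ret encodes the receptor tyrosine kinase for GDNF-family ligands, which enteric neurons need to form and survive. It read 7.95 and 8.08 in Control and 7.26, 8.06 and 8.30 in NT-3N. The Control values fell inside the NT-3N range, and the log2 fold change was -0.14 (SE 0.30, adjusted p = 0.90 in limma, 95% interval -0.87 to 0.59). Hand2, a transcription factor of enteric neuron differentiation, varied little: 8.64 and 8.66 in Control and 8.62, 8.43 and 8.53 in NT-3N.

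Phox2a and Nefm were the pan-neuronal members with a positive log2 fold change, 0.06 in Nefm. Phox2a encodes a homeodomain transcription factor of autonomic neurons and their precursors. Its log2 signal was 7.43 and 8.06 in Control and 7.97, 8.75 and 8.85 in NT-3N. NT-3N 1 lay just below Control 2, so the groups overlapped, and the log2 fold change was 0.78 (SE 0.31, adjusted p = 0.50 in limma). The 95% interval ran from 0.027 to 1.54, and the change was 0.47 without Control replicate 1 (adjusted p = 0.90 in limma) and 0.67 and 0.62 without NT-3N replicates 2 and 3 (adjusted p = 0.81 and 0.74 in limma), each no longer at an unadjusted p under 0.05. Phox2a was represented by 1 probe.

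The other pan-neuronal members had log2 fold changes between -0.38 and 0.06. They were the filament genes Nefl, Nefm and Prph, the vesicle release genes Snap25 and Syt1, the growth cone genes Gap43 and Stmn2, and Scg2, a granule protein. Scg2 had the largest gap of NT-3N 1, with 10.89 and 10.78 in Control and 9.78, 10.73 and 10.85 in NT-3N. Nefl and Snap25 were the members highest on NT-3N 1. Snap25 read 14.83 and 14.66 in Control and 14.86, 14.42 and 14.58 in NT-3N, while a second, dim probe of the gene read 4.17 and 4.61 in Control and 2.31, 4.19 and 4.86 in NT-3N, where NT-3N 1 was not well above background. The probes of Snap25 thus differed in which array was lowest.

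Among the transmitter genes, the cholinergic pair is Chat, which makes acetylcholine, and Slc18a3, which loads it into vesicles and lies within the Chat gene. Chat read 7.25 and 7.03 in Control and 7.11, 6.97 and 7.08 in NT-3N. The NT-3N values overlapped Control, with a log2 fold change of -0.09 (SE 0.14, adjusted p = 0.87 in limma, 95% interval -0.44 to 0.26). The 3 Chat probes did not read alike, since a dimmer one had a log2 fold change of -0.54 (adjusted p = 0.56 in limma) and the third one of -0.0054. Slc18a3 read 8.58 and 8.65 in Control and 7.86, 8.44 and 8.43 in NT-3N, all NT-3N arrays below both Control arrays, with a log2 fold change of -0.37 (SE 0.20, adjusted p = 0.62 in limma).

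The inhibitory motor genes overlapped between groups. Nos1, the neuronal nitric oxide synthase, read 5.20 and 5.24 in Control and 4.88, 5.65 and 5.29 in NT-3N, with a log2 fold change of 0.06 (SE 0.28, adjusted p = 0.96 in limma, 95% interval -0.61 to 0.72). Vip, the precursor of vasoactive intestinal peptide, read 9.79 and 10.25 in Control and 9.38, 9.86 and 10.24 in NT-3N, with a log2 fold change of -0.19 (SE 0.27, adjusted p = 0.85 in limma, 95% interval -0.83 to 0.45). For both genes NT-3N 1 was the lowest array.

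Tac1 encodes the precursor of substance P and neurokinin A, the excitatory tachykinins of the gut. It read 11.54 and 11.55 in Control and 11.25, 12.08 and 12.02 in NT-3N. The Control arrays were nearly equal, NT-3N 2 and 3 lay about 0.5 log2 above them and NT-3N 1 below them, which gave a log2 fold change of 0.24 (SE 0.25, adjusted p = 0.79 in limma). Its second probe gave the same log2 fold change, 0.24, and had the same order of groups. Penk, the enkephalin precursor, read 11.69 and 12.05 in Control and 10.86, 11.71 and 11.51 in NT-3N, a log2 fold change of -0.51 (SE 0.26, adjusted p = 0.59 in limma).

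The most negative members were peptide genes, here named after their values were seen. Calcb, which encodes a calcitonin gene-related peptide, read 8.39 and 7.32 in Control and 5.93, 7.48 and 6.85 in NT-3N. NT-3N 2 lay above Control 2, and the log2 fold change was -1.10 (SE 0.50, adjusted p = 0.56 in limma). Without Control replicate 1 this change was -0.56, and without Control replicate 2 it was -1.64 (adjusted p = 0.75 in limma). Calca, its paralog and neighbour on the chromosome, read 5.60 and 5.07 in Control and 5.08 and 5.23 on NT-3N 1 and 2, and was not well above background on NT-3N 3. Whether a probe of either paralog also binds RNA of the other was not tested.

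Grp, the precursor of gastrin-releasing peptide, read 9.37 and 9.17 in Control and 7.77, 9.20 and 8.08 in NT-3N. NT-3N 2 lay at the Control level while the other NT-3N arrays were more than 1 log2 below it, and the log2 fold change was -0.92 (SE 0.40, adjusted p = 0.54 in limma). Gal, the galanin precursor, had a log2 fold change of -0.48 (adjusted p = 0.64 in limma) with 10.82 and 11.14 in Control and 9.92, 10.75 and 10.83 in NT-3N. NT-3N 3 and Control 1 could hardly be told apart for Gal, and NT-3N 1 was the lowest array.

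The remaining transmitter members had log2 fold changes between -0.46 and -0.12. Calb2, or calretinin, a calcium-binding protein of many enteric neurons, read 6.46 and 6.61 in Control and 5.62, 6.10 and 6.51 in NT-3N. On its other probe, nearly as bright, the groups did not overlap and the log2 fold change was -0.64 (unadjusted p = 0.0069, adjusted p = 0.31 in limma). The main counts of lower and of non-overlapping members use the brightest probe, so this probe did not enter them. The catecholamine synthesis genes Th and Dbh, the neuropeptide gene Npy and Cartpt, a peptide precursor, all overlapped between groups, with adjusted p from 0.81 to 0.93 in limma. Dbh varied most among them, with 8.35 and 9.20 in Control and 7.43, 8.99 and 9.12 in NT-3N.

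Cytokines that use gp130 are known, in cultured sympathetic neurons, to switch cells from noradrenergic to cholinergic and peptide messengers. That background groups Chat, Slc18a3, Vip, Tac1 and Gal as genes that can go up and Th, Dbh and Npy as genes that can go down. In the colon, 1 of the 5 had a positive log2 fold change and 0 of the 5 had an unadjusted p under 0.05 in limma, with a median of -0.19. The 3 noradrenergic genes had negative log2 fold changes with a median of -0.16, and 0 of 3 had an unadjusted p under 0.05. The medians of both groups were thus close to each other. Sympathetic cell bodies lie outside the colon and the tissue was taken at 3 hr, so these values do not test that switch.

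Signs were less one-sided without NT-3N 1. With that array left out, 11 of 30 log2 fold changes were positive, and the median was -0.072 over the pan-neuronal members and -0.18 over the transmitter members. At an unadjusted p under 0.05, 2 members were then higher, against 7.62% of all features, and 2 were lower, against 8.14%. The higher ones were Phox2a at 1.06 (SE 0.22, adjusted p = 0.14 in limma) and Tac1 at 0.50 (SE 0.079, adjusted p = 0.091 in limma). The lower ones were Nefl at -0.30 and Snap25 at -0.25, the genes that NT-3N 1 held highest. The sign of the log2 fold change turned in 7 members: Ret, Stmn2, Gap43, Vip, Npy, Dbh and Cartpt.

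**Figure D2:**
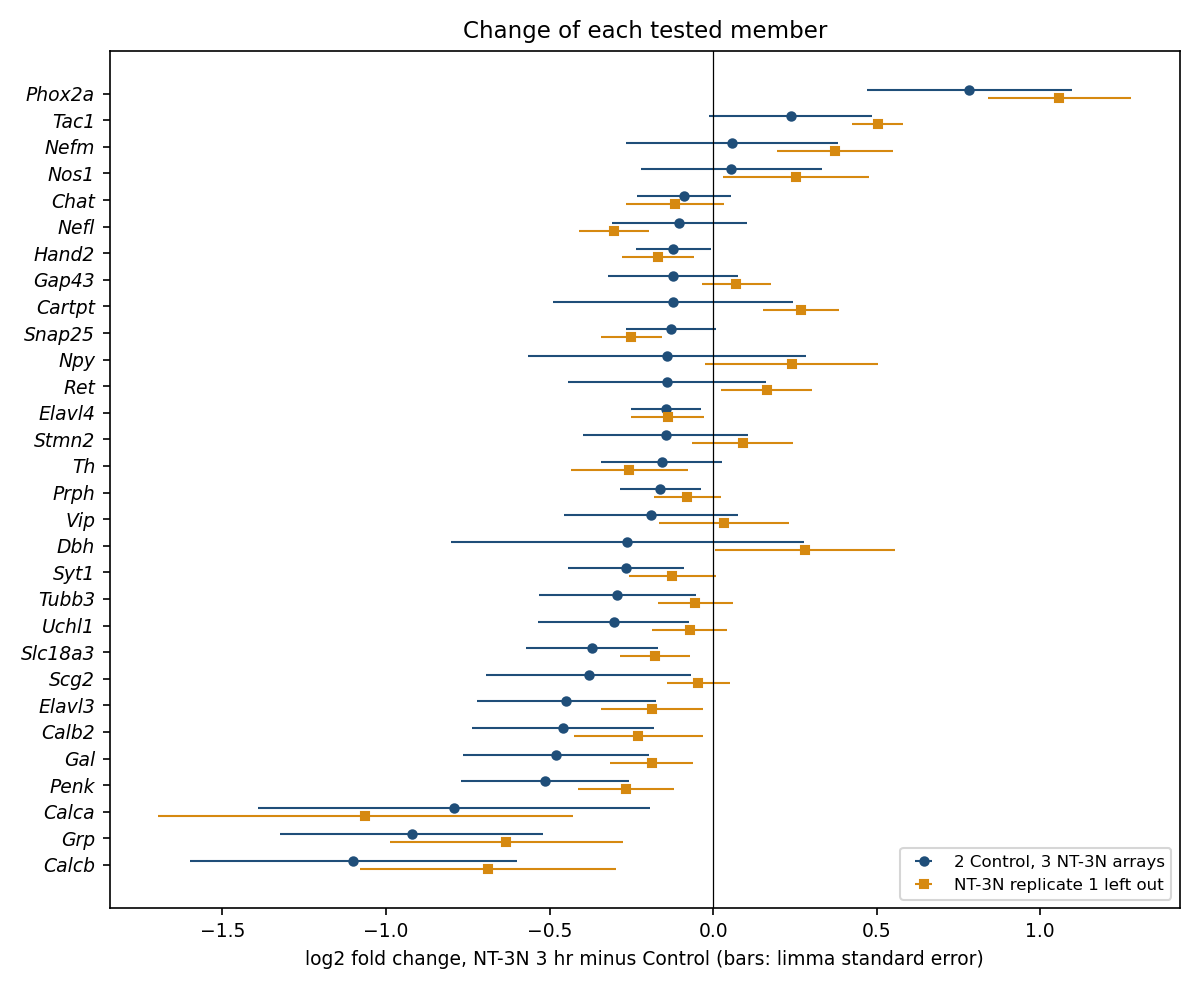
Log2 fold change of NT-3N over Control for each tested member (x axis), with bars of 1 limma standard error, from all 5 arrays (circles) and without NT-3N replicate 1 (squares). Phox2a and Tac1 lie highest in both fits, at 0.78 and 0.24 with all arrays and 1.06 and 0.50 without NT-3N replicate 1, and most squares lie to the right of their circles.

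To set each gene against the pan-neuronal members of its array, the median of those other than the gene itself was subtracted on every array. This step was chosen after seeing the data and the low values of NT-3N 1. The median of all 15, relative to the Control mean, was -0.069 and 0.069 in Control and -0.55, -0.11 and -0.058 in NT-3N. On this relative scale Phox2a was -0.27 and 0.27 in Control and 0.79, 1.12 and 1.17 in NT-3N, a difference of 1.03. Tac1 was 0.060 and -0.060 in Control and 0.25, 0.64 and 0.53 in NT-3N, a difference of 0.47. With Nos1, at a difference of 0.29, these were the 3 of 30 members that lay above Control on all NT-3N arrays. On this scale 29.7% of all features did so. The relative values of Gal and Slc18a3 lay below Control on all NT-3N arrays, with differences of -0.24 and -0.13, and 2.64% of all features did so. The margins were narrow: Gal was -0.088 on Control 1 and -0.091 on NT-3N 3, and Slc18a3 was -0.034 on Control 2 and -0.069 on NT-3N 2. Neither share can be weighed against that of the members, since 15 of the 30 define the subtracted median. Subtracting that median, low on NT-3N 1, also raised every feature there. These relative values were not tested, and the median relative difference over the transmitter members was -0.025.

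The wider set of 40 neuron genes, with 35 tested, showed the same arrangement of arrays. Its median log2 fold change was -0.29, and the median over its genes relative to the Control mean was -0.62 on NT-3N 1, -0.15 on NT-3N 2 and -0.068 on NT-3N 3. The groups did not overlap in 10 of the 35 with NT-3N lower, against 14.8% of all features, and in 2 with NT-3N higher, against 13.5%. At an unadjusted p under 0.05, 0 were higher and 5 lower in limma, against 4.95% and 4.67% of all features, and 0 passed the adjusted threshold. Among those 5, the largest were Nmu, the neuromedin U precursor, at -1.18, Sst, the somatostatin precursor, at -0.58, Rab3a, a vesicle GTPase, at -0.57 and Tbx3, a transcription factor, at -0.55, with adjusted p in limma of 0.50, 0.38, 0.25 and 0.43. Sst is also made by enteroendocrine cells and Tbx3 by other cells of the wall.

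Markers of muscle and its pacemaker cells were low on the same array as the neuron genes. Of 10 smooth muscle markers, 8 were lowest on NT-3N 1, and their median relative to the Control mean was -0.72 there, -0.14 on NT-3N 2 and -0.25 on NT-3N 3. All 10 had negative log2 fold changes. At an unadjusted p under 0.05 in limma 5 were lower, against 4.67% of all features. Without overlap between groups 9 were lower, against 14.8%. The 4 markers of interstitial cells of Cajal, the pacemakers of gut muscle, had a median of -0.52 on NT-3N 1. The 10 epithelial markers had a median of 0.011 there, and the 9 enteric glia markers -0.028. The enteroendocrine list spread between the Control arrays already, from -0.23 to 0.23, and lay at -0.24 on NT-3N 1. How much the amount of muscle layer in the sample contributed to the neuron values was not tested.

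**Figure D3:**
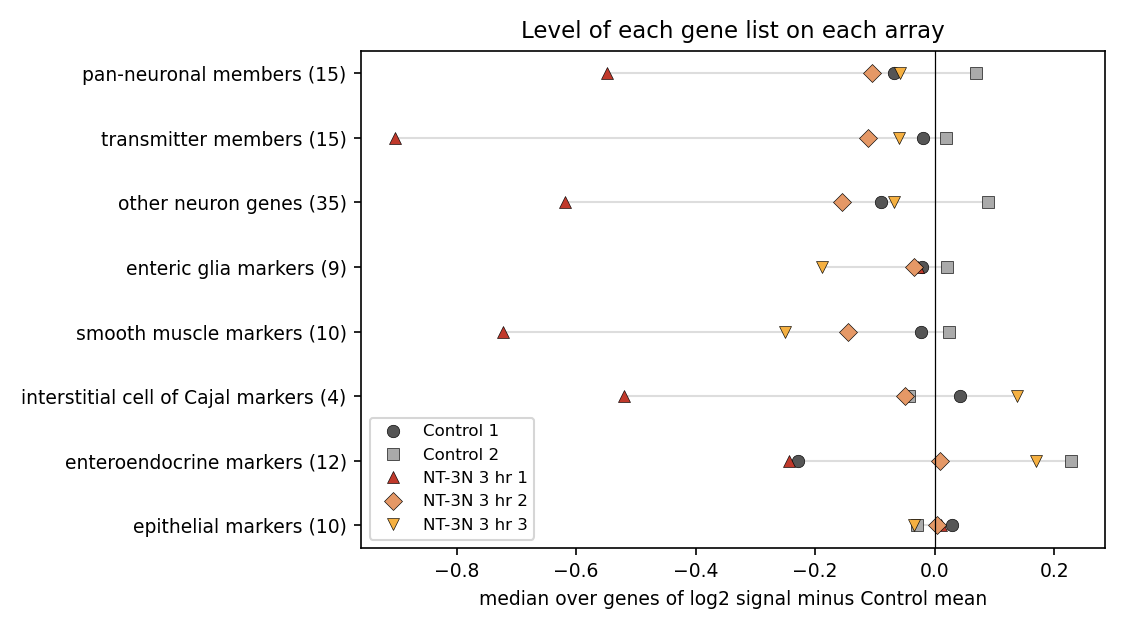
Median over the tested genes of each list of the log2 signal minus the Control mean (x axis), with 1 symbol per array and the number of tested genes in brackets. On NT-3N 1 the 3 neuron lists, the smooth muscle list and the list for interstitial cells of Cajal lie between -0.90 and -0.52, while epithelial and glia markers lie near 0.

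Glia, the supporting cells of the same ganglia, held 1 gene past the adjusted threshold. Gfap, their intermediate filament gene, rose from 6.97 and 6.77 in Control to 8.83, 8.65 and 8.66 in NT-3N (log2 fold change 1.84, SE 0.13, adjusted p = 0.012 in limma). Its adjusted p in limma was 0.089 without NT-3N replicate 2 and 0.13 without NT-3N replicate 3, with a log2 fold change of 1.87 in both. The median log2 fold change of the 9 tested glia markers was -0.092.

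Genes for the signals that maintain enteric neurons had a median log2 fold change of -0.040 over the 13 tested of 15. Bdnf, a neurotrophin, had a log2 fold change of 0.88 (adjusted p = 0.38 in limma) with 4.49 and 4.24 in Control and 4.93, 5.38 and 5.42 in NT-3N. Artn, a GDNF-family ligand, was at 0.44 (adjusted p = 0.40 in limma) and Ntrk3, the receptor for neurotrophin 3, at -0.58 (adjusted p = 0.48 in limma). The groups did not overlap in these 3 genes. Over the 13, NT-3N was higher without overlap in 3 and lower without overlap in 3, against 13.5% and 14.8% of all features. Of the 13, 0 passed the adjusted threshold.

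Receptors for the transmitters of the list included larger changes than those of any member. Of 25 receptor genes, 23 were tested, with a median log2 fold change of -0.13. At an unadjusted p under 0.05 in limma 2 were higher and 3 lower, against 4.95% and 4.67% of all features. Without overlap between groups 2 of the 23 were higher and 7 lower, against 13.5% and 14.8% of all features. Tacr1, the substance P receptor, was the 1 receptor gene past the adjusted threshold. It rose from 6.80 and 6.86 in Control to 8.39, 8.14 and 8.10 in NT-3N, a log2 fold change of 1.38, or 2.61-fold (SE 0.14, adjusted p = 0.043 in limma). NT-3N 1 was here the highest array. Leaving out single arrays moved the adjusted p between 0.038 and 0.23, and it stayed under the threshold only without NT-3N replicate 1.

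Galr2, a galanin receptor, lay on the other side. It read 7.27 and 7.00 in Control and 5.54, 5.33 and 5.69 in NT-3N, a log2 fold change of -1.61 (SE 0.19, adjusted p = 0.058 in limma). The gap between the groups was far wider than the spread inside either, although the adjusted p just missed the threshold. Adrb3, an adrenergic receptor gene also used by fat, had a log2 fold change of -0.54 (adjusted p = 0.26 in limma). The median of 7 fat markers relative to the Control mean was 1.17 and -1.17 in Control and 0.61, -0.24 and -2.03 in NT-3N, and their part in the Adrb3 value was not tested.

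The other receptors with an unadjusted p under 0.05 were dim. Oprk1, the kappa opioid receptor, read 5.23 and 6.37 in Control and 4.51 and 4.55 on NT-3N 2 and 3, and was not well above background on NT-3N 1 (fitted log2 fold change -1.57, adjusted p = 0.36 in limma). That value was -2.14 without Control replicate 1, was no longer at an unadjusted p under 0.05 without Control replicate 2 (-0.998), and was -0.56 with normexp background correction. Npy2r, a receptor for neuropeptide Y and peptide YY, read 5.60 on Control 2 and 6.73, 6.03 and 6.10 in NT-3N, and was not well above background on Control 1. Its fitted log2 fold change of 1.96 (adjusted p = 0.47 in limma) became 0.68 without that array. Without Control replicate 2 it became 3.23, a value that rests on the dim Control 1 alone. Muscle, epithelium and immune cells also use several of these receptors, so the cells behind the values cannot be told apart.

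**Figure D4:**
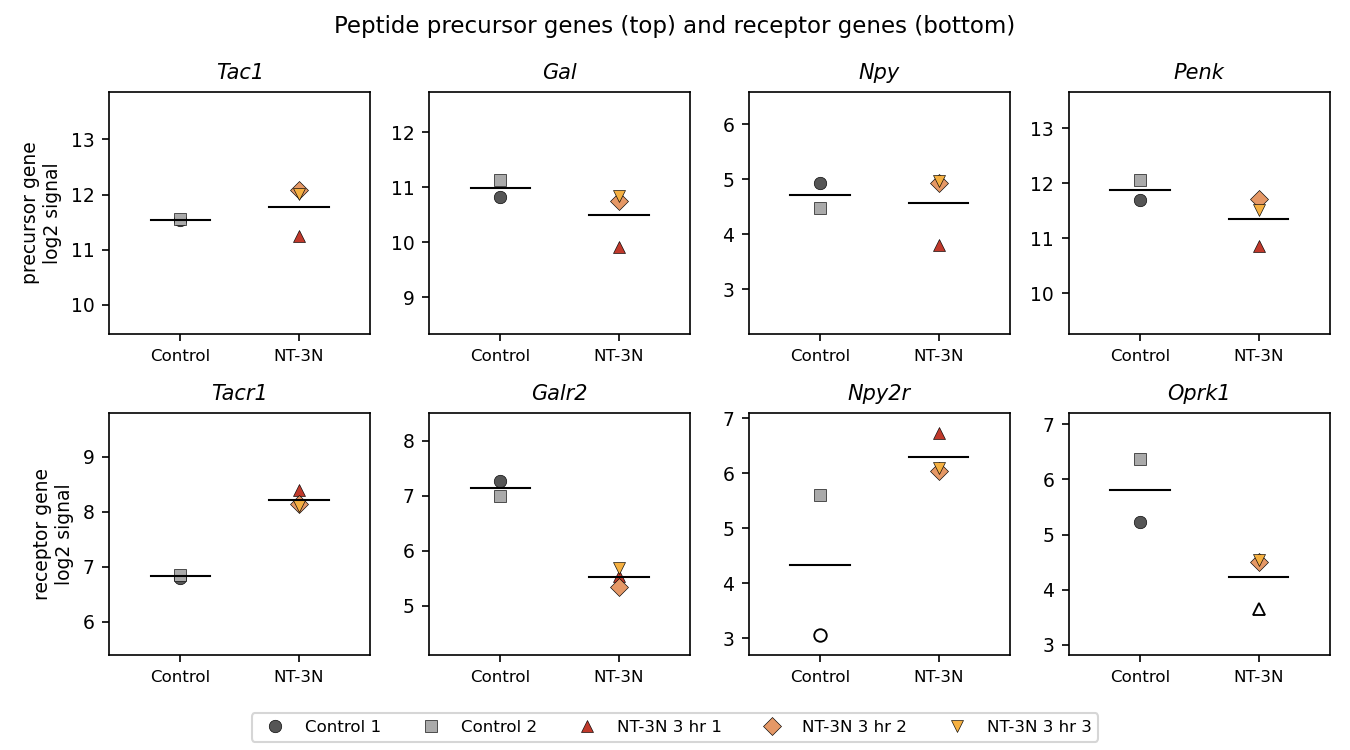
Log2 signal (y axis, spanning the same number of log2 units in every panel) of 4 peptide precursor genes in the upper row and of a receptor gene for each in the lower row, with 1 symbol per array and a line at each group mean; open symbols mark arrays not well above background. Tacr1 and Galr2 separate the groups with NT-3N 1 among the other NT-3N arrays, while Tac1, Gal, Npy and Penk overlap and have NT-3N 1 lowest.

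Promoters of the members were searched for the letters of 2 binding motifs. TTCNNNGAA is the core bound by STAT factors such as STAT3, and TGACGTCA is the full cyclic AMP response element, a site used in many neuropeptide genes. Each motif reads the same on both strands, and a window ran from 250 bases before to 50 after the RefSeq start in build GRCm38.p6. Windows were at hand for 20 of the 31 members. TTCNNNGAA was present in 1 member, Scg2, and in 8.30% of all 32851 windows. TGACGTCA was present in 3 members, Scg2, Th and Cartpt, and in 1.79% of all windows. Neither motif was in the windows of Phox2a and Tac1, which says only that these letters were absent there.

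The 120 bases before the start are shown 5′ to 3′ for Phox2a and Tac1, whose NT-3N levels lay highest relative to the other neuron genes, and for the 3 members that hold a motif. Capitals mark the motif letters.
Phox2a (chr7:101818193-101818312, plus strand): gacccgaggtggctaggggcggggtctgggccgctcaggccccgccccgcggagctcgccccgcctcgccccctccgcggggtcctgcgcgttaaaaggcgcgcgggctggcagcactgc
Tac1 (chr6:7554941-7555060, plus strand): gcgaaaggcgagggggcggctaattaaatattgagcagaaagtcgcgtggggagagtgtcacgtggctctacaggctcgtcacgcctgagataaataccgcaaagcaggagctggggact
Scg2 (chr1:79440027-79440146, minus strand): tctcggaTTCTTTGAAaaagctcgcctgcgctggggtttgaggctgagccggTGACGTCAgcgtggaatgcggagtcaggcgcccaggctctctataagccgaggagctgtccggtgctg
Th (chr7:142899996-142900115, minus strand): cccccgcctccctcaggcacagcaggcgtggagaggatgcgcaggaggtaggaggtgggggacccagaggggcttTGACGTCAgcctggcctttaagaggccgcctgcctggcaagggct
Cartpt (chr13:99900684-99900803, minus strand): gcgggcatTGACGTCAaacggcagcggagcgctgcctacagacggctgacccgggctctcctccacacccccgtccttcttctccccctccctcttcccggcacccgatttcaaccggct

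In Scg2 the STAT letters began 113 bases before the start and the cyclic AMP element 68 bases before it. The element began 45 bases before the start in Th and 112 in Cartpt. The levels of these 3 genes did not move alike: Scg2 and Cartpt were lowest on NT-3N 1, at 9.78 and 7.34, whereas Th read 8.60 and 8.24 in Control and 8.46, 8.32 and 8.01 in NT-3N, with NT-3N 3 lowest. A match is a run of letters, and binding there was not measured.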

How the data were processed

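Whole colon RNA of 5 mice was labelled with Cy3 and hybridised to 5 single-colour Agilent mouse arrays. Per the labels, spots were read with Agilent Feature Extraction 11.0.1.1. Scanner files deposited for each array hold the processed intensity of each spot, background-subtracted but not scaled between arrays. The authors also deposited a table of quantile-normalized log2 values for 37380 probes, which was used as an alternative.

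For the present comparison, control spots and outlier spots were left out, intensities were log2-transformed, spots of a probe averaged and arrays quantile-normalized. Probes were kept if well above background on at least 2 arrays. Probe accessions were matched to RefSeq symbols (GRCm38.p6), naming 32994 of 56605 probes, and the brightest probe stood for a gene. Groups were compared over all 32917 features with limma 3.58.1 in R 4.3.3 (lmFit, eBayes with an intensity trend, two-sided, Benjamini-Hochberg adjustment, threshold 0.05), which was tested on simulated data. The local-pooled-error test that the methods of the study name was an alternative, as were other scalings, background corrections, filters, probe rules and leaving out arrays.

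The members and lists were chosen with earlier results of these data known. Arrays were given one by one for members with an unadjusted p under 0.05, for members without overlap and a change of at least 0.5 log2 (there were 0), and for Elavl4, Uchl1, Phox2a, Ret, Chat, Nos1, Vip and Tac1. Other members shown were chosen after their values were seen. Of other gene lists, up to 4 genes per direction with an unadjusted p under 0.05 were named.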

Additional observations from a re-analysis of the deposited data

How the results depend on the processing

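The median log2 fold change of the pan-neuronal members was -0.14 with all arrays and ran from -0.26 to -0.072 over the alternatives. That of the transmitter members was -0.26 and ran from -0.47 to -0.15, and it was -0.025 relative to the pan-neuronal median. Each moved by less than its spread between arrays (SD 0.23 and 0.39). That spread holds the low NT-3N 1 and is larger than the medians themselves, so it could hardly show a move. Adjusted calls among the members stayed at 0 in limma under every alternative, while the local-pooled-error test called 1 lower member, Grp (-1.19, adjusted p = 0.040), where that test called 0.498% of all features lower and 0.571% higher. Members lower at an unadjusted p under 0.05 numbered 0 with all arrays, 2 with normexp background correction (3.80% of all features), 2 with the local-pooled-error test (1.94%) and 1 with the mean of probes (4.72%). Members higher numbered 1 with all arrays, 0 without the intensity trend (4.63% of all features) and 2 with the local-pooled-error test (1.91%). Without the filter on dim probes 1 member was higher (4.18%). It was Calb1, which was not well above background on any array, and not Phox2a (unadjusted p = 0.081 in limma). Leaving out single arrays gave 0 to 3 lower and 0 to 2 higher members, with 2.70% to 8.14% of all features lower and 3.03% to 7.62% higher. With the replicate number as a replicate block, 6 of 30 members were lower, against 4.10% of all features, and Nefm turned to -0.16. The labels tie no Control mouse to an NT-3N mouse, and deviations of same-numbered arrays correlated at 0.13 and 0.036 over 2 pairs, so the numbers were not taken as pairs.

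The sign turned with array quality weights in Ret (0.030), Npy (0.096), Dbh (0.069) and Cartpt (0.11), and with the local-pooled-error test in Ret (0.044), Npy (0.22), Dbh (0.21) and Cartpt (0.21). The further probe of Dbh gave 0.073. Without single arrays, the log2 fold change ran from -0.36 to 0.16 for Ret, -0.30 to 0.019 for Nefl, -0.16 to 0.37 for Nefm, -0.37 to 0.091 for Stmn2, -0.26 to 0.070 for Gap43, -0.20 to 0.020 for Chat, -0.13 to 0.25 for Nos1, -0.42 to 0.04 for Vip, -0.37 to 0.24 for Npy, -0.34 to 0.026 for Th, -0.68 to 0.28 for Dbh and -0.35 to 0.27 for Cartpt. The cause was not tested. Tacr1 was called in 8 of 17 alternatives (adjusted p 0.015 to 0.49) and Galr2 in 5 of 17 (0.030 to 0.49), each in 1 direction throughout.

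Precision is limited by 2 Control arrays and by the spread among the 3 NT-3N arrays. Of the 31 members, 29 were well above background on all 5 arrays. Probes of 1 gene did not always read alike, and 12 members had several, 45 probes over all members.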
